A study of Mus musculus with 8 samples.

Results

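The 35 genes described here are interferon-stimulated genes, chosen by name from a list of mouse interferon-response symbols. All 35 were matched by Entrez number to a row among the 23282 rows of a gene-level read count table. The table came from RNA-seq of the heart in male mice of strain FVB/N at 4 months of age, and it has 4 libraries per genotype, wild-type or AE3-null. AE3-null mice lack the normal Slc4a3 gene, which encodes the chloride/bicarbonate exchanger AE3 of the heart muscle cell membrane. All 8 libraries share strain, sex, age and tissue, and the labels name no treatment. The labels do not describe the null allele, say whether the controls were littermates, or say what a replicate number stands for. The design text gives 4 mice of each genotype, and the p-values rest on the spread among these 8 libraries.

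Interferons are cytokines released when cells detect virus, bacteria or misplaced nucleic acid. Type I interferons signal through IFNAR1 and IFNAR2 and the kinases JAK1 and TYK2 to a complex that holds STAT2 and IRF9 and binds the interferon-stimulated response element (ISRE). Interferon gamma, made by T and NK cells, signals through IFNGR1 and IFNGR2 to genes with a gamma-activated site (GAS), and it strongly induces IRF1, the guanylate-binding proteins (Gbp genes) and the immunity-related GTPases (Igtp, Irgm1, Iigp1). Heart muscle, endothelial cells, fibroblasts and resident macrophages all respond to interferons.

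Promoters are shown first, since sequence is a feature that the choice of members by name did not use directly. Whether the motifs go with the levels in the libraries was not tested. Of the 35 members 26 had a promoter in the RefSeq table (GRCm38.p6, whereas the submitters' processing notes name mm9), with 30 windows in all, each from 250 bases before to 50 after a start site. The ISRE core, sought on both strands as GAAA, any 2 bases and GAAA again, was in 16 of the 30 windows (53.3%), against 3.44% of all 32851 windows in the table. The GAS letters TTCNNNGAA, which read the same on both strands, were in 8 of the 30 (26.7%), against 8.3% of all windows. All 5 GTPase genes with a promoter in the table held the ISRE core, and Igtp and Gbp7 held GAS as well. The members were listed as interferon genes, so this describes them and tests nothing. The 150 bases before the start follow for 5 GTPase genes, for Irf1, which holds GAS without the ISRE core, and for 2 classical type I genes, 5′ to 3′ on the gene's strand. For Gbp3 and Irf1 the first of 2 windows is shown, and the second window of each held neither motif. Capitals mark matches to either motif, and neighbouring capitals without a gap are overlapping matches.
Igtp (chr11:58199406-58199555, plus strand): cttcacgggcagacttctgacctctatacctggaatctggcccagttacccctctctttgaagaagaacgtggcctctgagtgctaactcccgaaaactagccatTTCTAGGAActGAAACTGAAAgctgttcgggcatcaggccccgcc
Irgm1 (chr11:48871421-48871570, minus strand): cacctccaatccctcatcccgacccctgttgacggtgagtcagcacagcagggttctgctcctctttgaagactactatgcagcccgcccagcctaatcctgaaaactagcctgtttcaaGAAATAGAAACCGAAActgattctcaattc
Gbp7 (chr3:142530186-142530335, plus strand): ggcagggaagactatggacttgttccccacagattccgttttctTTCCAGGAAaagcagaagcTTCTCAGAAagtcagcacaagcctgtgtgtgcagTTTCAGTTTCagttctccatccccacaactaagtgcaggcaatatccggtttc
Gbp3 (chr3:142559894-142560043, plus strand): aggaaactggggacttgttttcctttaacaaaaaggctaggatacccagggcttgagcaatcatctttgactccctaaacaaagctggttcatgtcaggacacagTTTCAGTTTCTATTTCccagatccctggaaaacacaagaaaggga
Gbp2 (chr3:142620513-142620662, plus strand): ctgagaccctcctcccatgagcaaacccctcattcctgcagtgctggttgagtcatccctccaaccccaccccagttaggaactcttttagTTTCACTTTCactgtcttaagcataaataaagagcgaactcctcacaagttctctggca
Irf1 (chr11:53769864-53770013, plus strand): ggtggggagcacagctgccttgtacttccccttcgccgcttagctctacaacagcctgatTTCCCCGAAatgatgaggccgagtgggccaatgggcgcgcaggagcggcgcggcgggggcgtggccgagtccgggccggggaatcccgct
Isg15 (chr4:156200819-156200968, minus strand): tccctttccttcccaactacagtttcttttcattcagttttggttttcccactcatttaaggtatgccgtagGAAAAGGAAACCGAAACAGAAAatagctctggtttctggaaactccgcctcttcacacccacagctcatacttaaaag
Ifit1 (chr19:34640739-34640888, plus strand): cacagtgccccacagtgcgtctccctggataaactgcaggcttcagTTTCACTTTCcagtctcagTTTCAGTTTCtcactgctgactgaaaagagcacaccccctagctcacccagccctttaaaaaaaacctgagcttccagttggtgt
The first base of the ISRE match lay 34 bases before the start in Igtp, 30 in Irgm1, 53 in Gbp7, 45 in Gbp3, 59 in Gbp2, 78 in Isg15 and 104 in Ifit1. Irgm1 and Gbp3 held 2 overlapping matches and Isg15 held 3. The first GAS match lay 45 bases before the start in Igtp, 106 in Gbp7 and 90 in Irf1.

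The libraries held 9133628 to 27078351 counts. Slc4a3 (Entrez 20536) was at 378 to 389 CPM (counts per 1e6 counts of a TMM-scaled library) in wild-type hearts and at 31.5 to 34.6 CPM in AE3-null hearts, so each library fitted its genotype label. The log2 fold change was -3.54 (SE 0.040). On principal component 2 of all tested genes wild-type replicate 3 lay at -22.6 and the others at -1.48 to 8.89. The members were spread from 2 genes with a mean under 1 CPM to 22 genes at 10 CPM or more. CPM is not scaled to gene length, so no levels are ranked between genes.

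The first comparison asked whether loss of AE3 changed the level of the interferon-stimulated genes in the heart. None of the 34 members that could be tested passed edgeR's quasi-likelihood test at an adjusted p under 0.05, where 6.47% of all 14136 tested genes did, 3.16% higher and 3.31% lower in AE3-null hearts. Zbp1 was the only member with an unadjusted p under 0.05, which 21% of all tested genes reached. DESeq2 and limma voom also called 0 members, with 1 and 3 at an unadjusted p under 0.05, while calling 6.87% and 6.23% of all genes. RLE size factors, total counts, no filter and a minimum count of 30 gave 0 members as well, beside 6.44%, 6.29%, 5.13% and 7.08% of all genes. The log2 fold change was positive in 27 of the 34, with a median of 0.15, whereas 49.5% of all tested genes were positive with a median of -0.0018. That median of the members was 0.31 without wild-type replicate 1, and 0.055 without wild-type replicate 3 or without AE3-null replicate 1. The sign changed in 14 of the 34 members when a single library was left out. By role, the log2 fold change was positive in 4 of 4 transcription factors, 3 of 3 nucleic acid sensors, 5 of 6 translation and RNA effectors, 2 of 5 effectors at membranes and capsids, 7 of 7 GTPases, 3 of 4 genes of the ISG15 and ubiquitin group and 3 of 5 others. Cxcl10, a chemokine that draws T cells, had too few reads for the test, with 1 to 16 reads per library.

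Libraries of 1 genotype differed from each other, and in both genotypes replicate 1 was the high library for most members. Summed over the 35 members, wild-type replicate 1 had 1113 CPM and wild-type replicates 2 to 4 had 540 to 665 CPM. The same sum was 1298 in AE3-null replicate 1 against 712 to 836 in AE3-null replicates 2 to 4. Replicate 1 was the highest library of its genotype for 31 of the 34 tested members in wild-type hearts (21.9% of all tested genes) and for 27 in AE3-null hearts (23.7%). It was the highest in both genotypes for 27 members, against 5.73% of all tested genes. The lowest of all 8 libraries was wild-type replicate 3 for 18 members and wild-type replicate 2 for 13. The share of all tested genes with these libraries lowest was not computed, so these counts cannot be called particular to the members.

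**Figure D1:**
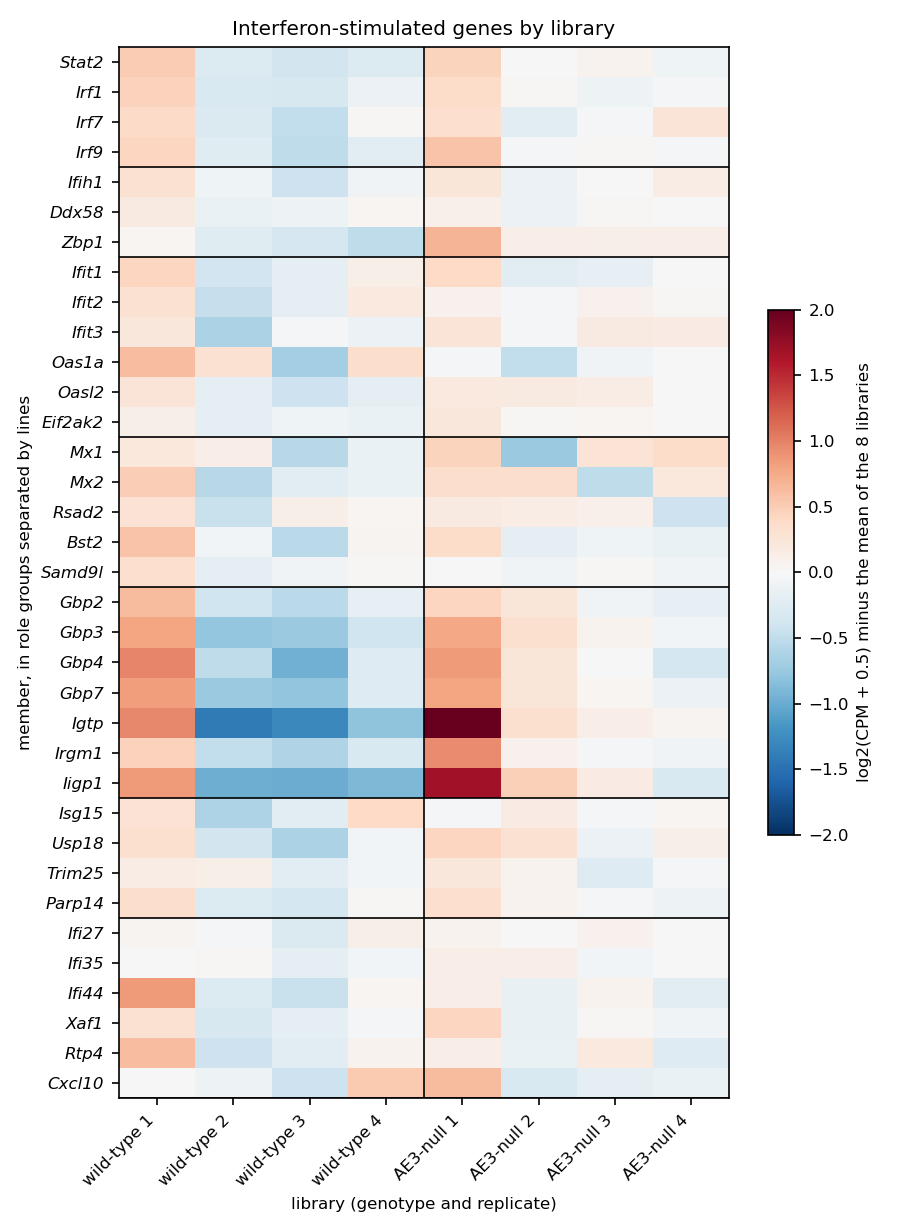
Each row is 1 of the 35 members and each column 1 library, and the colour gives log2(CPM + 0.5) minus the gene's mean over the 8 libraries, with the colour scale ending at 2 in each direction. The columns of wild-type replicate 1 and AE3-null replicate 1 are red for most members, and Igtp and Iigp1 are among the deepest red in AE3-null replicate 1.

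The interferon-inducible GTPases, which attack the vacuoles in which intracellular parasites and bacteria live, included Igtp and Iigp1, the tested members with the highest replicate 1 ratios in both genotypes. Igtp (Entrez 16145), also named Irgm3, was at 79.0, 14.8, 16.2 and 22.8 CPM in wild-type replicates 1 to 4 and at 172, 50.6, 44.3 and 41.9 CPM in AE3-null replicates 1 to 4. Replicate 1 was 4.40 times the mean of the other wild-type libraries and 3.77 times that of the other AE3-null libraries. Wild-type replicate 1 lay above AE3-null replicates 2 to 4, so the genotypes overlapped. Their means were 33.2 ± 30.7 and 77.2 ± 63.2 CPM (SD, n = 4), a difference of 1.23 on the log2 scale (SE 0.783) with an edgeR adjusted p of 0.442. With AE3-null replicate 1 left out the log2 fold change was 0.44, and with wild-type replicate 1 left out it was 2.11.

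Iigp1 (Entrez 60440), an immunity-related GTPase that coats parasite vacuoles, had its highest level in replicate 1 too. It was at 144, 40.1, 39.8 and 42.7 CPM in wild-type replicates 1 to 4 and at 257, 110.4, 89.0 and 64.1 CPM in AE3-null replicates 1 to 4. The lowest AE3-null library lay above wild-type replicates 2 to 4 and below wild-type replicate 1. The difference was 0.97 on the log2 scale (SE 0.661), with an edgeR adjusted p of 0.476. It was 0.38 when AE3-null replicate 1 was left out and 1.68 when wild-type replicate 1 was. Irgm1 (Entrez 15944), a regulator of the other GTPases and of autophagy, was at 42.4, 21.7, 20.1 and 24.7 CPM in wild-type replicates 1 to 4, and at 59.3 CPM in AE3-null replicate 1 and 29.1 to 32.6 CPM in AE3-null replicates 2 to 4. Its log2 fold change of 0.48 had an SE of 0.359 (edgeR adjusted p 0.515), and it went down to 0.16 when AE3-null replicate 1 was dropped and up to 0.78 when wild-type replicate 1 was.

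The guanylate-binding proteins had a different order, with wild-type replicate 1 as the highest of the 8 libraries. Gbp4 was at 105, 37.4, 27.1 and 44.4 CPM in wild-type replicates 1 to 4 and at 96.4, 62.8, 53.5 and 41.4 CPM in AE3-null replicates 1 to 4. Gbp7 was at 87.7, 29.1, 28.3 and 41.0 CPM in wild-type and at 85.3, 58.0, 50.5 and 45.3 CPM in AE3-null replicates. Gbp3 reached 36.3 and 35.9 CPM in the replicate 1 libraries, against 12.0 to 15.7 CPM in the other wild-type and 19.9985 to 26.1 CPM in the other AE3-null libraries. Gbp2 went from 29.1 to 66.0 CPM in wild-type and from 38.0 to 57.5 CPM in AE3-null hearts. The genotypes overlapped in all 4 genes, and the log2 fold changes of 0.17 to 0.44 had SEs of 0.303 to 0.501. Without wild-type replicate 1 they were 0.48 in Gbp2, 0.95 in Gbp3, 0.80 in Gbp4 and 0.86 in Gbp7. At the other end stood Gbp2 at 0.034 without wild-type replicate 3, and Gbp3 at 0.22, Gbp4 at -0.050 and Gbp7 at 0.12 without AE3-null replicate 1. Gbp genes lie in clusters of similar sequence, and reads could be shared between them.

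**Figure D2:**
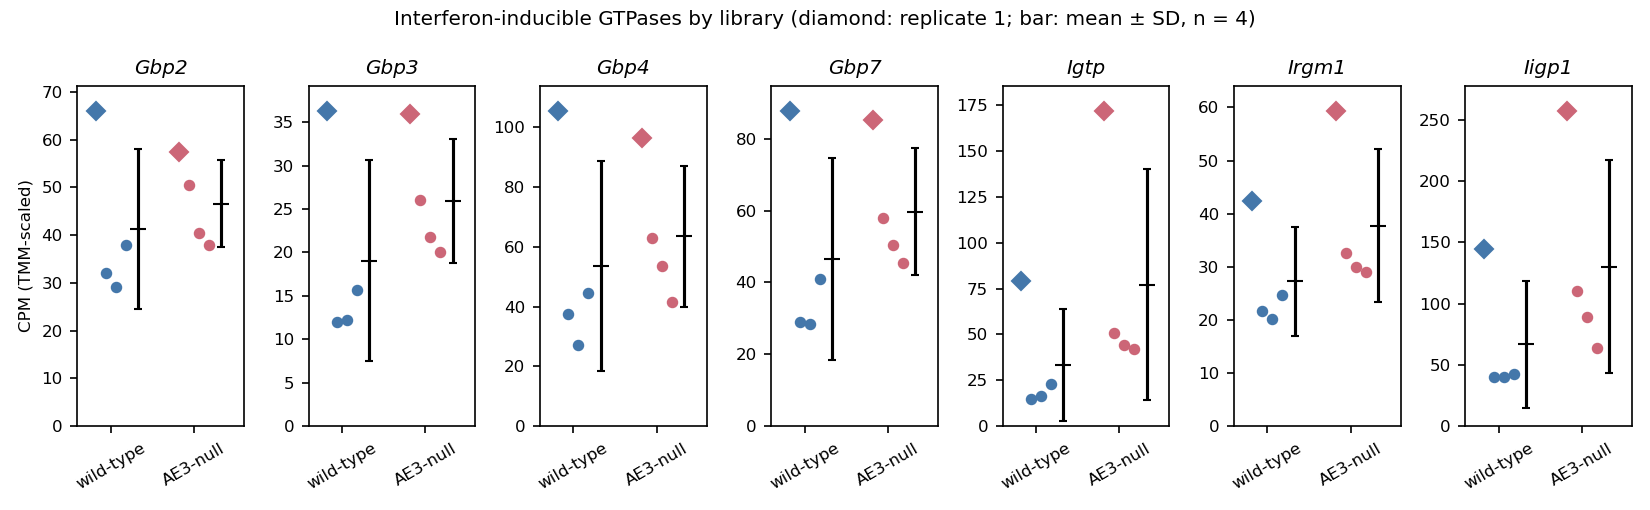
CPM of the 7 GTPase genes in each library on linear axes from 0, with replicate 1 as a diamond, replicates 2 to 4 as circles, and the mean ± SD (n = 4) as a bar. In every panel the diamond is the highest value of its genotype, at 79.0 CPM in wild-type and 172 CPM in AE3-null hearts for Igtp.

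The transcription factors that carry the interferon signal varied in the same way with a smaller range. Irf1, induced by interferon gamma, was at 46.7, 27.3, 26.8 and 31.0 CPM in wild-type replicates 1 to 4 and at 43.8, 34.3, 31.5 and 33.2 CPM in AE3-null replicates. Irf9, the DNA-binding subunit of the type I complex, was at 32.1, 19.97, 16.5 and 20.3 CPM in wild-type and at 35.3, 23.4, 24.2 and 22.9 CPM in AE3-null replicates. Irf7, which amplifies type I interferon production, was at 8.53, 5.18, 4.40 and 6.53 CPM in wild-type and at 8.21, 5.49, 6.32 and 7.73 CPM in AE3-null replicates. For each of these 3 genes wild-type replicate 1 lay above AE3-null replicates 2 to 4. Stat2 had 40.5 CPM in wild-type replicate 1 and 21.8 to 23.2 CPM in the other wild-type libraries, and 38.5 CPM in AE3-null replicate 1 and 26.5 to 29.5 CPM in the other AE3-null libraries. The log2 fold changes of these 4 genes were 0.12 to 0.26, with edgeR adjusted p-values of 0.596 to 0.820. Without wild-type replicate 1 they were 0.44 for Stat2, 0.50 for Irf9, 0.33 for Irf1 and 0.40 for Irf7. Without AE3-null replicate 1 they were 0.047 for Stat2, 0.081 for Irf9 and -0.0026 for Irf1, and Irf7 was at 0.085 without wild-type replicate 3.

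Among the sensors of foreign nucleic acid, Zbp1 came nearest to a call. Zbp1 (Entrez 58203), which binds Z-form nucleic acid and triggers necroptosis, was at 1.17, 0.886, 0.787 and 0.642 CPM in wild-type and at 2.11, 1.29, 1.26 and 1.29 CPM in AE3-null replicates 1 to 4. All 4 AE3-null libraries lay above all 4 wild-type libraries, which no other tested member showed and which 12.2% of all tested genes showed in one direction or the other. The log2 fold change was 0.81 (SE 0.265), with an edgeR adjusted p of 0.0809 and a range of 0.0565 to 0.285 over the listed alternatives. These levels rest on 12 to 50 reads per library.

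The RNA helicases of the same group were not called. Ddx58, which encodes the cytosolic RNA sensor RIG-I, was at 19.97 to 24.8 CPM in wild-type and 20.04 to 23.5 CPM in AE3-null hearts, with a log2 fold change of 0.01 (SE 0.073). Ifih1, which encodes the sensor MDA5, was at 15.5, 11.7, 9.18 and 11.8 CPM in wild-type and at 14.7, 11.4, 12.5 and 13.8 CPM in AE3-null replicates. Wild-type replicate 1 was again the highest library, and the genotypes overlapped (log2 0.14, SE 0.134).

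The effectors that act on viral RNA and translation had a median log2 fold change of 0.10 over 6 genes. Eif2ak2, the kinase PKR that stops translation when it binds double-stranded RNA, was at 25.1, 20.1, 21.6 and 20.9 CPM in wild-type and at 27.2, 23.6, 23.8 and 23.1 CPM in AE3-null replicates. Oasl2, of the oligoadenylate synthetase family, was at 12.5, 8.93, 7.68 and 9.09 CPM in wild-type and at 11.9, 11.7, 11.5 and 10.5 CPM in AE3-null replicates. In both genes every AE3-null library lay above wild-type replicates 2 to 4 (log2 0.16, SE 0.075 for Eif2ak2 and log2 0.24, SE 0.121 for Oasl2). Leaving out wild-type replicate 1 brought Oasl2 to a log2 fold change of 0.40 (edgeR adjusted p 0.0293), the one member called in that fit, which called 4.6% of all genes.

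The Ifit genes encode proteins that hold back foreign RNA by its 5′ end. The log2 fold change was 0.02 for Ifit1 (SE 0.198), 0.04 for Ifit2 (SE 0.160) and 0.28 for Ifit3 (SE 0.145). Oas1a, which makes the messenger that activates RNase L, had a log2 fold change of -0.36 (SE 0.250), the lowest of the members. In wild-type replicate 3 it was at 2.10 CPM against 4.64 to 5.93 CPM in wild-type replicates 1, 2 and 4. Leaving that library out brought Oas1a to -0.57 (edgeR adjusted p 0.0141), the one member called in a fit that called 12.1% of all genes. The other 6 fits with a single library left out called 0 members, beside 4.26% (wild-type replicate 2), 3.05% (wild-type 4), 4.11% (AE3-null 1), 4.63% (AE3-null 2), 4.02% (AE3-null 3) and 2.88% (AE3-null 4) of all genes. Oas1a and Ifit3 have near-identical neighbouring copies, so their counts are uncertain.

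The effectors at membranes and viral particles had a median log2 fold change of -0.04 over 5 genes. Mx1, a dynamin-like GTPase against influenza viruses, was at 0.680, 0.613, 0.197 and 0.428 CPM in wild-type and at 0.884, 0.108, 0.737 and 0.810 CPM in AE3-null replicates. Its relative Mx2 was at 2.90, 1.16, 1.57 and 1.71 CPM in wild-type and at 2.61, 2.59, 1.21 and 2.32 CPM in AE3-null replicates. Both Mx genes rest on few reads, 1 to 22 per library for Mx1, and their genotypes overlapped. Samd9l, a restriction factor of poxviruses, was at 32.1, 22.4, 24.2 and 25.7 CPM in wild-type and at 25.6, 24.0, 25.7 and 24.1 CPM in AE3-null replicates (log2 -0.07, SE 0.091). Bst2, the tetherin that holds budding virions, and Rsad2, viperin, had log2 fold changes of -0.04 and -0.04 (SE 0.259 and 0.186).

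The ISG15 system, in which a ubiquitin-like protein is attached to others and removed by USP18 had no called member. Isg15 was at 1.36 to 3.26 CPM in wild-type and 2.26 to 2.69 CPM in AE3-null hearts (log2 -0.02, SE 0.217). Usp18 was at 3.398, 1.91, 1.51 and 2.51 CPM in wild-type and at 3.71, 3.34, 2.37 and 2.87 CPM in AE3-null replicates (log2 0.38, SE 0.219). The ubiquitin ligase Trim25, which activates RIG-I, was at 65.2, 63.9, 50.2 and 56.3 CPM in wild-type and at 68.4, 61.8, 48.9 and 57.0 CPM in AE3-null replicates (log2 0.0030, SE 0.121). In Trim25 replicate 1 was 1.15 and 1.22 times the mean of the others of its genotype. Parp14, an ADP-ribosyltransferase, was at 71.8, 46.5, 44.0 and 57.6 CPM in wild-type and at 71.5, 59.0, 55.1 and 52.6 CPM in AE3-null replicates (log2 0.11, SE 0.186).

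The genes Ifi27 and Ifi35 showed little of the replicate 1 pattern. Ifi27, a mitochondrial membrane protein gene, was at 31.8, 29.9, 25.1 and 33.4 CPM in wild-type and at 32.4, 30.8, 32.7 and 30.6 CPM in AE3-null replicates. Ifi35 was at 22.1, 22.4, 19.5 and 21.2 CPM in wild-type and at 24.3, 24.3, 21.4 and 22.1 CPM in AE3-null replicates. For these genes replicate 1 was 1.03 to 1.078 times the mean of the others of its genotype. Xaf1, which binds the apoptosis inhibitor XIAP, had a log2 fold change of 0.14 (SE 0.159), Rtp4 of -0.09 (SE 0.226) and Ifi44 of -0.20 (SE 0.299). Ifi44 was high in wild-type replicate 1 alone, at 4.63 CPM against 1.57 to 2.61 CPM in the other 7 libraries.

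The second comparison set the replicate 1 libraries against the rest across the whole table, as a description chosen after the members' levels had been seen. A gene was counted when replicate 1 was at least 1.5 times the mean of the other 3 libraries in both genotypes. This held for 48 of the 14136 tested genes (0.34%), and 10 of the 48 were members, 29.4% of the 34 tested. A further 16 of the 48 came from the other interferon pathway genes on the lists, 15.5% of the 103 tested. At 2 times or more there were 8 genes (0.0566%), of which Igtp and Iigp1 were members and Irgm2 and Cxcl9 pathway genes. Of the 10 members 6 were GTPase genes, and the others were Irf9, Ifit1, Zbp1 and Mx1.

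**Figure D3:**
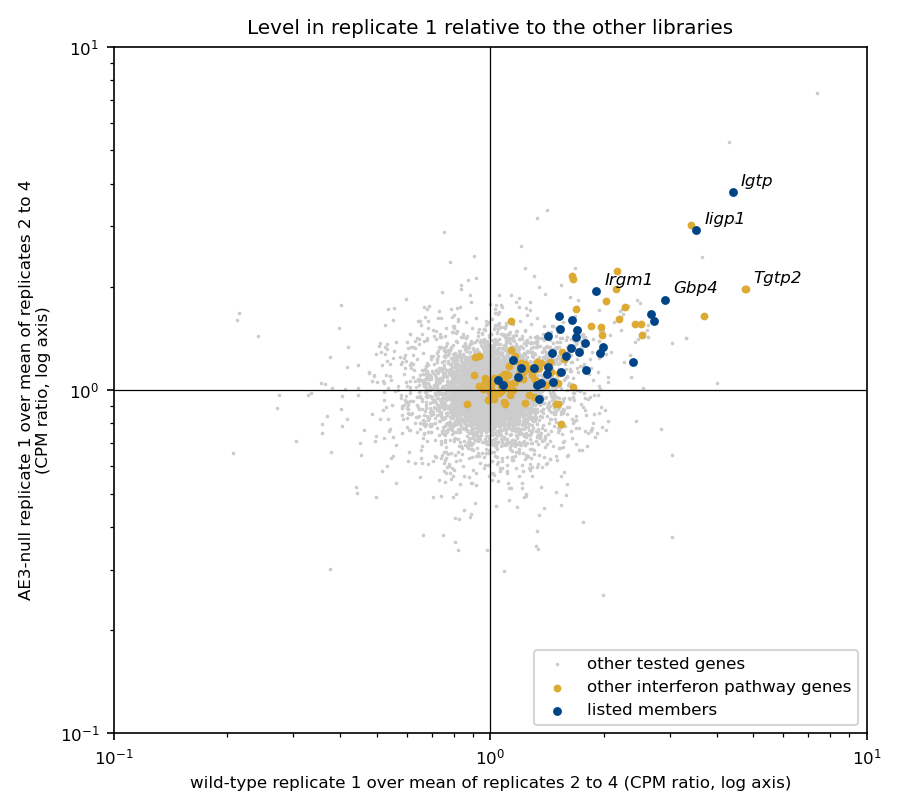
For each tested gene, the CPM of replicate 1 over the mean of replicates 2 to 4 in wild-type hearts (x axis) and in AE3-null hearts (y axis), both on log axes, with members in blue, other interferon pathway genes in yellow and all other genes in grey (2 genes lie outside the axes or at 0). Igtp lies at 4.40 and 3.77, and nearly all members lie to the upper right of the point where both ratios are 1.

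The summed markers of immune cells had smaller replicate 1 ratios than the summed members. The sum of all members leans on the 7 GTPase genes. These held 561 of its 1113 CPM in wild-type replicate 1 and 764 of its 1298 CPM in AE3-null replicate 1. The summed CPM of 13 macrophage markers in replicate 1 was 1.13 times the mean of the others in wild-type and 1.11 times in AE3-null hearts. For the 7 GTPase genes it was 2.86 and 2.29 times, and for all members 1.87 and 1.68 times. Single macrophage markers went from 0.884 (Aif1) to 1.55 times (Fcgr1) in wild-type hearts. In AE3-null hearts they went from 0.949 (Cx3cr1) to 1.42 times (Fcgr1). By edgeR 0 of the 13 macrophage markers were called between genotypes. At an unadjusted p under 0.05 stood 2, Cx3cr1 (log2 0.71) and Lyve1 (log2 -0.23), against 21% of all tested genes. The 9 T and NK cell markers summed to 5.13 CPM in wild-type replicate 1 against 2.86 to 3.80 CPM in wild-type replicates 2 to 4, while AE3-null replicate 1 had 5.22 CPM and the remaining AE3-null libraries 3.66 to 4.84 CPM. That sum was 1.49 and 1.24 times the mean of the others. Single markers went both ways, with Cd3e at 2.96 and 1.94 times and Cd3d at 0.608 and 0.497 times. Both had 14 reads or fewer per library. Cd4, the only marker of this list that was tested, was at 1.09 and 1.20 times. Cd3e, Cd3g and Cd8a were at 0 in AE3-null replicate 2, the shallowest library. Dendritic cell markers, 1.04 and 0.998 times, B cell markers, 0.907 and 1.04 times, and neutrophil markers, 1.09 and 1.22 times, summed to 25.7 CPM or less in each library. The part of these cells in the members' levels was not tested. In whole hearts fewer cells of a type and less RNA per cell cannot be told apart.

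The third comparison looked at the 3 remaining libraries of each genotype. Both replicate 1 libraries were left out together, an alternative chosen after their levels had been seen, so the result is a description and no independent support for a genotype difference. With 3 against 3 libraries, edgeR called 4 of the 34 members, all higher in AE3-null hearts, against 2.57% of 14104 tested genes in either direction and 1.43% upward. Igtp was at 14.8 to 22.8 CPM in wild-type and 41.9 to 50.6 CPM in AE3-null hearts (log2 1.32, SE 0.163, edgeR adjusted p 0.0113). Gbp3 rose by log2 0.73 (SE 0.122, edgeR adjusted p 0.00918), Irgm1 by 0.45 (SE 0.083, edgeR adjusted p 0.0107) and Stat2 by 0.30 (SE 0.072, edgeR adjusted p 0.0408).

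At an unadjusted p under 0.05 stood 13 of the 34, against 15.9% of all genes. In these 6 libraries 31 of the 34 members had a positive log2 fold change, with a median of 0.22, whereas 49.3% of all tested genes were positive with a median of -0.0024. All 3 AE3-null libraries lay above all 3 wild-type libraries for 11 members, against 10.3% of all tested genes, and below for 0, against 10.1%. The 11 were Igtp, Irgm1, Iigp1, Gbp3 and Gbp7, the factors Stat2, Irf1 and Irf9, and Zbp1, Oasl2 and Eif2ak2. Iigp1 had a log2 fold change of 1.079 (SE 0.224, edgeR adjusted p 0.108). Rsad2, Oas1a and Trim25 were the members with a negative log2 fold change, and Ifit1 and Samd9l were near 0, at 0.01 and 0.03.

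**Figure D4:**
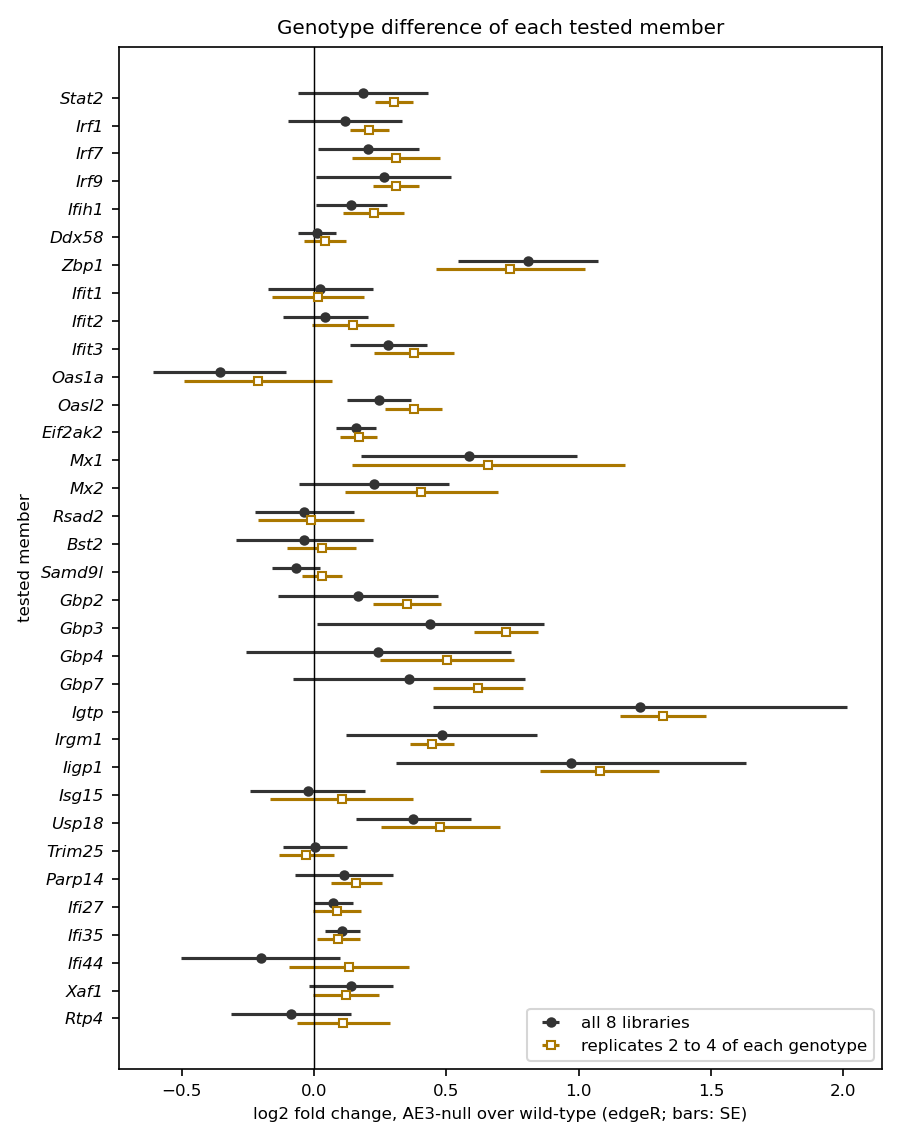
Log2 fold change of each tested member, AE3-null over wild-type, with its SE from edgeR, for all 8 libraries (filled circles) and for replicates 2 to 4 of each genotype (open squares). The point of Igtp moves from 1.23 to 1.32 while its SE falls from 0.783 to 0.163.

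Upstream of these genes, 1 receptor chain and 1 kinase were called lower in AE3-null hearts. They were among 4 of 103 tested pathway genes called lower, against 3.31% of all tested genes. Ifngr1, the ligand-binding chain of the interferon gamma receptor, was at 63.9, 65.6, 62.3 and 62.3 CPM in wild-type and at 58.2, 59.1, 53.6 and 53.1 CPM in AE3-null replicates 1 to 4. All AE3-null libraries lay below all wild-type libraries, and Ifngr1 fell by 0.19 on the log2 scale (SE 0.048, edgeR adjusted p 0.0276). Jak1, the kinase shared by both receptor types, was at 283, 281, 266 and 304 CPM in wild-type and at 251, 258, 249 and 253 CPM in AE3-null replicates, a fall of 0.17 (SE 0.039, edgeR adjusted p 0.0193). The call of Ifngr1 was lost in 6 and that of Jak1 in 4 of 15 listed alternatives. Ifnar1, Ifnar2 and Ifngr2 had log2 fold changes of 0.0022, 0.07 and 0.11, and Tyk2 of 0.12.

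Few or no reads came from the interferon genes on the lists, Ifnb1, Ifna4 and Ifng. No reads were counted for Ifnb1 or Ifna4 in any library. Ifng had 2 reads, both in AE3-null replicate 1.

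Of 103 tested pathway genes 6 were called by edgeR, 2 higher and 4 lower, a share near the 6.47% of all genes. By direction, 3.16% of all genes were called higher and 3.31% lower. In the receptor and JAK-STAT list 3 of 17 fell, Ifngr1, Jak1 and Stat3, which fell by 0.17 (SE 0.044, edgeR adjusted p 0.0284). In the sensing list 1 of 22 fell, Tlr4, the receptor of bacterial lipopolysaccharide, from 22.4 ± 3.33 to 16.2 ± 1.48 CPM (SD, n = 4, log2 -0.48, edgeR adjusted p 0.0118), with wild-type replicate 3 at 17.97 CPM just under AE3-null replicate 2 at 18.1 CPM. The inducer factor Irf3 and the adaptor Mavs were not called, at -0.045 and -0.14. Among 64 further interferon-induced genes Parp10, an ADP-ribosyltransferase, rose by log2 0.26 (SE 0.061) and Nmi, a partner of STAT proteins, by 0.38 (SE 0.108). Among the 15 alternatives Nmi was lost in 9, Stat3 in 6, Parp10 in 3 and Tlr4 in 1. Without AE3-null replicate 4, 1 pathway gene was called, where 2.88% of all tested genes were. Without AE3-null replicate 3 or wild-type replicate 4 the count was 2, beside 4.02% and 3.05% of all genes. Without wild-type replicate 3 it was 11, beside 12.1% of all genes.

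The 10 endothelial markers summed to 1592 to 1747 CPM in wild-type and 1376 to 1467 CPM in AE3-null libraries. All 10 had a negative log2 fold change, and 4 of the 10 were called lower, against 3.31% of all tested genes. Endothelial cells were not alone in this, with 3 of 9 fibroblast markers called lower. All 7 tested red blood cell markers had a negative log2 fold change, and 0 were called. Of the smooth muscle and pericyte markers 2 of 8 were called higher, as were 2 of 8 cardiomyocyte markers, against 3.16% of all tested genes. The part of any cell type in the falls of Ifngr1, Jak1, Stat3 and Tlr4 was not tested. With both replicate 1 libraries left out, edgeR called 2.57% of all tested genes in either direction and 1.43% upward. Of 103 tested pathway genes 6 were called in that fit, all higher in AE3-null hearts. None of the 6 called in all 8 libraries was among them. Those 6, Ifngr1, Jak1, Stat3, Tlr4, Parp10 and Nmi, kept their sign with edgeR adjusted p-values of 0.069 to 0.112 there. The genes called there were the immunoproteasome subunits Psmb8 and Psmb9, the peptide transporter Tap1, the GTPases Irgm2 and Gbp5, and Uba7, the enzyme that activates ISG15. Tap1 was at 13.1 to 18.5 CPM in wild-type replicates 2 to 4 and 26.1 to 30.3 CPM in AE3-null replicates 2 to 4 (log2 0.88, SE 0.118, edgeR adjusted p 0.00323).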

How the data were processed

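The authors deposited raw read counts per Entrez gene for the 8 heart libraries, in a single table. The submitters' processing notes name bcl2fastq, CASAVA 1.8, TopHat, DESeq and the build mm9, without their roles. How reads were assigned to genes, with which annotation and strand setting, is not given in the sources used here, so overlapping and near-identical genes are uncertain. Symbols came from an NCBI RefSeq gene table (GRCm38.p6), which matched 23185 of 23282 rows. The promoter sequences are RefSeq's, of the same build, and no coordinates were moved between builds.

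The members, the gene lists and the tests were chosen with earlier results of these data known. Genotypes were compared with edgeR 4.0.16 in R 4.3.3: filterByExpr with a minimum count of 10, TMM scaling, the robust quasi-likelihood F test without covariates, and Benjamini-Hochberg adjustment over all 14136 tested genes. Calls have an adjusted p under 0.05, and fold changes are AE3-null over wild-type. Each SE was derived from the F statistic of its gene. DESeq2 1.42.0, limma 3.58.1 (voom), other scalings and filters, a replicate block, and each library left out were alternatives. Members printed in every library were, per role group, the 2 with the smallest p and the one with the highest mean CPM. Gbp3, Gbp4, Gbp7, Irgm1 and other genes with values for single libraries were added after their values were seen. The scripts were tested on simulated counts. Between libraries of the same genotype the chi-square per gene was 2.51 to 7.40, well past sampling noise, and all 8 were kept as separate samples. The total counts, 9133628 to 27078351 per library, set the precision of low genes. Single values of 1 pathway gene are not reported here.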

Additional observations from a re-analysis of the deposited data

Results flagged for a closer look

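Within each genotype, the highest and the lowest library of 47 genes (the 35 members and 12 pathway genes) were checked for a gap to the nearest of the other 3 above Dixon's 95% critical share of the whole range. Of 94 groups of 4 libraries 13 had one, where chance gives about 1 in 20, and the genes are not independent of each other. In 10 of the 13 the library apart was a replicate 1 library on the high side.

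In wild-type replicate 1 the genes apart were Stat2 (40.5 CPM against 21.8 to 23.2 CPM), Gbp3 (36.3 CPM against 12.0 to 15.7 CPM), Igtp (79.0 CPM against 14.8 to 22.8 CPM) and Iigp1 (144 CPM against 39.8 to 42.7 CPM). In AE3-null replicate 1 they were Irf9 (35.3 CPM against 22.9 to 24.2 CPM), Zbp1 (2.11 CPM against 1.26 to 1.29 CPM), Bst2 (23.4 CPM against 15.8 to 17.0 CPM) and Igtp (172 CPM against 41.9 to 50.6 CPM). Irgm1 (59.3 CPM against 29.1 to 32.6 CPM) and Cxcl10 (0.674 CPM against 0.108 to 0.184 CPM, from 16 reads at most) stood apart in that library too.

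The low libraries were AE3-null replicate 4 for Rsad2 (8.54 CPM against 12.4 to 13.1 CPM), wild-type replicate 4 for Tyk2 (25.9 CPM against 28.4 to 28.8 CPM) and wild-type replicate 3 for Stat3 (229 CPM against 254 to 258 CPM).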

How the results depend on the processing

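The direction and call of Slc4a3 held under all alternatives. The median log2 fold change of the members stayed positive but moved from 0.15 to between 0.055 and 0.31 with single libraries left out. RLE or total-count scaling, other filters, DESeq2 and limma voom each called 0 members. An adjusted p under 0.1 gave 1546 genes, 1 member and 11 pathway genes. Leaving out single libraries gave 407 (without AE3-null replicate 4) to 1727 genes (without wild-type replicate 3), 0 to 1 members and 1 to 11 pathway genes. Leaving out both replicate 1 libraries gave 362 genes, with 3 libraries per genotype, and 4 members. Scaling to total counts gave 528 higher and 361 lower genes, against 447 and 468.

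A block for the replicate number, which called 1002 genes in all, gave 3 members (Irgm1, Igtp and Irf9) and 15 pathway genes, all 3 members higher in AE3-null. The labels do not tie the numbers to a shared litter, day or batch, and the numbers were not taken as pairs because not every correlation passed 0.1: same-numbered libraries had correlations of their deviations of 0.162, -0.0397, 0.0154 and -0.00282 for numbers 1 to 4, and among the wild-type libraries replicate 1 alone correlated best with its own number.

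With single libraries left out 14 of 34 members changed sign. Gbp4 ranged from -0.050 to 0.80, Ifi44 from -0.37 to 0.22, Bst2 from -0.19 to 0.19, Isg15 from -0.20 to 0.18, Rtp4 from -0.22 to 0.17, Ifit1 from -0.16 to 0.20, Ifit2 from -0.080 to 0.16, Rsad2 from -0.16 to 0.11 and Xaf1 from -0.019 to 0.28. Irf1 ranged from -0.0026 to 0.33, Ddx58 from -0.028 to 0.076, Samd9l from -0.13 to 0.045, Trim25 from -0.080 to 0.086 and Ifi27 from -0.0010 to 0.13. Trim25 was -0.00054 by limma voom, and without both replicate 1 libraries it was -0.030 and Samd9l 0.030. The longer ISRE core, with a C after the second GAAA, was in 46.7% of member windows and 0.819% of all. Members under 1 CPM rest on few reads per library, so small differences in them were not detectable at this depth.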

Other observations

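Of the 48 genes that were at least 1.5 times higher in replicate 1 than in the other libraries of both genotypes, 22 were in neither the member list nor the interferon pathway lists. The lists do not hold every Gbp gene, so absence from them does not place a gene outside the interferon response. Gm4841 had the highest ratios, 7.39 in wild-type and 7.34 in AE3-null hearts, and F830016B08Rik followed at 4.30 and 5.30. Gm12250 was at 4.48 and 3.10, Gm4951 at 3.66 and 2.45 and Gbp8, a guanylate-binding protein, at 2.45 and 1.83. The chains H2-DMa (1.95 and 1.72) and H2-DMb2 (2.25 and 1.67) of the MHC class II peptide exchanger, the chemokine Ccl8 (2.63 and 1.55) and the transcription factor Batf2 (2.13 and 1.58) were also among them. The mitosis genes Aurkb, Hmmr and Knl1 were among them at 1.63 to 2.33 times. These genes were named after their values were seen.

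Of 6 antigen processing genes on the pathway list, 3 were at least 1.5 times higher in replicate 1 in both genotypes, and Psmb10 (1.16 and 1.26), Tapbp (1.20 and 1.20) and B2m (1.55 and 1.29) were not. Tap1 was 2.29 and 1.74 times, Psmb9 1.97 and 1.53 times and Psmb8 1.85 and 1.53 times the mean of the other libraries in wild-type and AE3-null hearts. Nlrc5, the activator of MHC class I genes, was 3.69 and 1.64 times, and Cd274, which encodes PD-L1, 2.52 and 1.56 times. With both replicate 1 libraries left out, Psmb8 had a log2 fold change of 0.61 and Psmb9 of 0.72 (edgeR adjusted p 0.000748 and 0.00442), in the same fit that was added once the levels were known.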
